A study of Mus musculus with 2 samples.

Results

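The 9 heat shock chaperone genes described here are Hspa1a, Hspa1b, Dnajb1, Dnaja1, Hspa8, Hsph1, Hsp90aa1, Hspb1 and Cryab, taken by symbol from the 28692 genes of the count tables, where each symbol stands once in both libraries. Messenger RNA was counted in droplets from sorted lung epithelial cells of mice. In the tumor-bearing group, wild-type C57BL/6 mice had received 1000000 luciferase-labelled LLC cells, a mouse lung carcinoma line, under the skin of the back, and lungs were taken on day 14. In the control group, wild-type C57BL/6 mice were not treated. Lungs of both groups were digested with collagenases and DNase, and cells were sorted as CD45-negative and SftpC-positive to a stated purity above 95%, and made into 1 library per group. Sex and age are not given in the sources used here, and neither is whether a library pooled mice.

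With 1 library per group, no difference between the groups has a replicate check, no test across mice was possible, and tumor, mouse, digestion and library preparation cannot be told apart. A level is given as UMIs (unique molecular identifiers, each standing for 1 captured transcript) per 1000000 UMIs of the same cells (CPM), with a 95% exact Poisson interval; a fold has an exact interval conditional on the summed UMIs. These intervals cover counting error only. A gene counted as measured in a cell class at 20 CPM or more in either library, and as higher or lower when its tumor-bearing level was at least 25% above or 20% below the control level and the 2 Poisson intervals lay apart (the size rule). Because captured counts depend on each transcript's 3′ end, levels are compared for 1 gene across libraries and cell classes, never between genes.

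The libraries held 84448360 UMIs (tumor-bearing) and 91498124 UMIs (control). Surfactant-making alveolar type 2 (AT2) cells were taken as barcodes with at least 2000 UMIs of which Sftpc, a surfactant protein gene, made up at least 15%: 6729 tumor-bearing cells with a median of 8976 UMIs and 10008 control cells with a median of 6939 UMIs. The classes named from clusters were AT1-like (the thin gas-exchange cells, 177 tumor-bearing and 322 control cells), ciliated-like (215 tumor-bearing, 283 control), club-like (secretory airway cells, 269 tumor-bearing, 108 control) and endothelial-like (525 tumor-bearing, 64 control), each with its own markers at higher summed levels than AT2 cells. Empty droplets, which hold free RNA, were the barcodes with 1 to 100 UMIs, 554687 tumor-bearing and 485851 control. The libraries shared 94 AT2 barcodes. Ptprc, which encodes the CD45 of the sort, was at 0.0795 CPM in tumor-bearing AT2 cells and 0.0138 CPM in control AT2 cells, and the whole neutrophil marker list summed to 30.1 CPM (tumor-bearing) and 0.772 CPM (control). Endothelial markers summed to 266 CPM in tumor-bearing and 127 CPM in control AT2 cells, and red cell markers to 51.7 CPM in tumor-bearing and 234 CPM in control AT2 cells. Values with free RNA subtracted, in cells with no endothelial marker UMI and without cells of other clusters are given with the results; the part of the neutrophil markers was not tested.

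Heat shock chaperones keep proteins from aggregating and refold them. HSP70 proteins (Hspa1a, Hspa1b, Hspa8) bind exposed hydrophobic stretches in cycles of ATP hydrolysis, J proteins (Dnajb1, Dnaja1) bring them clients and stimulate that hydrolysis, Hsph1 exchanges their nucleotide, Hsp90aa1 matures kinases and steroid receptors, and the small heat shock proteins Hspb1 and Cryab hold unfolded proteins without ATP. Stress releases heat shock factor 1 (Hsf1), which binds heat shock elements in promoters; Hspa1a and Hspa1b are the classic inducible targets, and Hspa8 is made in unstressed cells too. Enzymatic digestion of tissue is a known trigger of heat shock and immediate early genes.

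In AT2 cells the inducible HSP70 gene Hspa1a and both J protein genes were higher in the tumor-bearing library; the other measured members stayed within those limits, and Hspa1b and Hsph1 were too low to be measured. Of the 9 members, 7 were measured; 3 of these (Hspa1a, Dnajb1 and Dnaja1) were higher and 0 lower. Of all 4036 genes measured in AT2 cells, 4.31% were higher and 3.99% lower by the same rule. The median log2 ratio (tumor-bearing over control, 1 CPM added to each) of the 7 measured members was 0.22, against -0.04 for all 4036 genes, of which 95% lay between -0.35 and 0.42. At 2-fold or more only Hspa1a remained of the members, where 0.694% of all genes were higher and 0.198% lower.

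**Figure D1:**
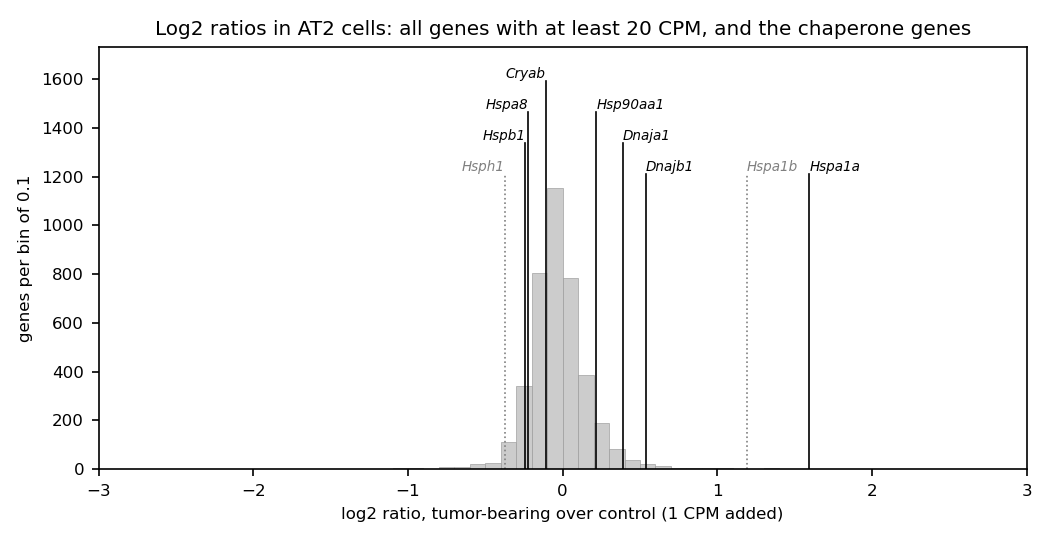
Log2 ratio of tumor-bearing over control AT2 cells on the x axis (1 CPM added), number of genes per bin of 0.1 on the y axis. Grey bars are the 4036 measured genes; lines mark the chaperone genes, dotted for Hspa1b and Hsph1, which were under 20 CPM in both. Hspa1a at 1.60 lies far right of the bulk, and Hspa8, Hspb1 and Cryab lie left of 0.

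Hspa1a, an inducible cytosolic HSP70, had 3002 UMIs or 47.7 CPM (46.0 to 49.4) in tumor-bearing AT2 cells, against 1096 UMIs or 15.1 CPM (14.2 to 16.0) in control AT2 cells. The fold was 3.16 (2.94 to 3.38), and 10 of the 4036 genes, 0.248%, had a larger ratio. The gene passed the 20 CPM minimum through the tumor-bearing library alone. Hspa1b, which encodes a nearly identical protein, had 16.0 CPM (15.04 to 17.04) in tumor-bearing cells and 6.45 CPM (5.88 to 7.07) in control cells, a fold of 2.48 (2.22 to 2.78); it stayed under 20 CPM in both and so has no call. Both genes lie on chromosome 17 of GRCm38 (mm10), minus strand, with 1 exon each, Hspa1a at 34969190 to 34972156 and Hspa1b at 34956436 to 34959238. Their coding sequences are 99.4% identical, but the parts after the stop codon, where 3′ reads fall, are 51.1% identical over the longer, so reads inside the coding sequence are uncertain between the pair. Hspa1a also overlaps Gm20481 on the other strand, which was at 0.0477 CPM in tumor-bearing and 0.0138 CPM in control AT2 cells.

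The promoters of this pair are shown because the genes encode nearly identical proteins and their control regions can be compared directly. In the RefSeq sequences (GRCm38.p6), 300 bases around each start, 296 of the bases are the same in both genes, and the stretch from 150 to 51 bases before the start is the same at 100 of 100 bases. A heat shock element is built of inverted repeats of GAA; the search was for GAA and TTC, in either order, with 2 free bases between them, which reads the same on both strands. Matches may overlap. Of 32851 promoters of this length, 15.1% hold at least 1 such pair and 0.603% hold 3 alternating units in a row; counted by gene, as the members are, these shares were 17.0% and 0.662% of 27025 genes. Of the members, 6 of 9 had a promoter in the table, 5 of them held a pair, and only Hsph1 held 3 units. Dnajb1 had no match in these windows. Capitals mark the matched units in the stretches below, all written 5′ to 3′ on the gene's strand: chr17:34972207-34972306 for Hspa1a, chr17:34959289-34959388 for Hspa1b, chr4:40722318-40722417 for Dnaja1, chr5:135887769-135887868 for Hspb1 and chr5:149636282-149636306 for Hsph1.
Hspa1a: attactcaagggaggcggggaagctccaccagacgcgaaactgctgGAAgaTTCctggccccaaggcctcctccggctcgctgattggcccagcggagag
Hspa1b: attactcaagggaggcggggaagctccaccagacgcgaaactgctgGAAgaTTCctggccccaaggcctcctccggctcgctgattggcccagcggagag
Dnaja1: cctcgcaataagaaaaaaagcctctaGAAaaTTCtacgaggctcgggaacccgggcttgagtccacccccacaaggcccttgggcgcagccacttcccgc
Hspb1: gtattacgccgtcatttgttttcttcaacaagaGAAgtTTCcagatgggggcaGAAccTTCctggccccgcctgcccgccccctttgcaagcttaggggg
Hsph1: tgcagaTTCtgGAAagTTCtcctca
The match begins at -104 from the start in both Hspa1a and Hspa1b, at -124 in Dnaja1, and at -117 and -97 in Hspb1. The printed Hsph1 stretch lies just after its start, within the transcribed part. Hsph1 also held a pair before the start that is not printed, beginning at -54, or at -33 from its other listed start. In the GENCODE annotation the Dnaja1 stretch lies within an exon of a non-coding Dnaja1 transcript. A match is a run of letters and shows no binding. Of the genes with a match, Hspa1a and Dnaja1 were higher in the tumor-bearing AT2 cells, and Hspb1 (fold 0.845) had no call. Hspa1b (fold 2.48) and Hsph1 (fold 0.743) were under 20 CPM in both libraries and so have no call. Dnajb1, with no match here, was higher. The part of the matches in these values was not tested.

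Dnajb1, the J protein partner induced together with HSP70 under heat shock (chromosome 8, 83608193 to 83612653, plus strand, 3 exons), had 83.6 CPM (81.4 to 85.9) in tumor-bearing AT2 cells, against 57.4 CPM (55.6 to 59.1) in control AT2 cells. The fold was 1.46 (1.40 to 1.52), and 1.59% of the measured genes had a larger ratio. Dnaja1, a J protein made in unstressed cells as well (chromosome 4, 40722150 to 40737149, plus strand, transcripts of 2 to 9 exons), had 222.7 CPM (219.0 to 226) in tumor-bearing and 170 CPM (167 to 173) in control AT2 cells, a fold of 1.31 (1.28 to 1.34). It overlaps Smu1 on the other strand, which was at 24.7 CPM in tumor-bearing and 26.0 CPM in control cells. The strand setting of the counting is not given in the sources used here, so reads of overlapping partners on opposite strands may be mixed.

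The constitutive HSP70 and the inducible HSP90 stayed within the limits of the size rule, and the exchange factor Hsph1 was too low to be measured. Hspa8 (chromosome 9, 40800984 to 40810087, plus strand) had 726 CPM (719 to 733) in tumor-bearing AT2 cells and 849 CPM (842 to 856) in control AT2 cells, a fold of 0.855 (0.845 to 0.866), opposite in direction to Hspa1a. Hsph1, the HSP110 that exchanges HSP70's nucleotide (chromosome 5, 149614287 to 149636376, minus strand), had 5.86 CPM in tumor-bearing and 7.89 CPM in control cells, a fold of 0.743 (0.650 to 0.849); it was past the size limit, with intervals apart, and has no call only because both levels were under 20 CPM. Hsp90aa1, the stress-inducible cytosolic HSP90 (chromosome 12, 110690605 to 110702728, minus strand), had 385 CPM (380 to 390) in tumor-bearing cells, against 331 CPM (327 to 335) in control cells. Its fold of 1.16 (1.14 to 1.18) was exceeded by 8.35% of the measured genes.

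Both small heat shock protein genes were slightly below the control level in AT2 cells and without a call. Hspb1 (chromosome 5, 135887919 to 135889563, plus strand) had 92.5 CPM (90.1 to 94.9) in tumor-bearing cells and 109 CPM (107 to 112) in control cells. Cryab, which encodes alpha-B crystallin (chromosome 9, 50751325 to 50756636, plus strand), had 47.8 CPM (46.1 to 49.5) in tumor-bearing cells and 51.6 CPM (49.997 to 53.3) in control cells. The folds were 0.845 (0.817 to 0.874) for Hspb1 and 0.925 (0.881 to 0.970) for Cryab. Cryab overlaps Hspb2 on the other strand, at 4.59 CPM in tumor-bearing and 3.99 CPM in control cells, and it is the member whose AT2 value depends most on which cells are kept: 46 tumor-bearing and 13 control AT2 cells lay in the AT1-like cluster, and without the cells of all other named clusters its log2 ratio was -0.32 in place of -0.11, past the size rule in the lower direction (4.46% of all genes were lower there).

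Hspa1a was higher in each of the AT2 clusters large enough to compare. The 6 joint clusters with at least 50 AT2 cells in each library are named here by leading genes. In the cluster led by Lrg1, Bex2 and Lyz1, Hspa1a was at 44.8 CPM in 2788 tumor-bearing cells and 16.5 CPM in 625 control cells, and in the one led by Nrn1, Itih4 and Scd1 it was at 50.1 CPM in 417 tumor-bearing cells and 9.94 CPM in 3535 control cells. The cluster led by Lgals3, Gsta1 and Clu had 47.1 CPM in 752 tumor-bearing and 14.98 CPM in 2912 control cells. The smallest difference lay in the cluster led by the chemokine genes Cxcl1 and Cxcl2 and by Gem, with 42.2 CPM in 1615 tumor-bearing and 24.5 CPM in 1423 control cells. Clusters whose leading genes mark fibroblasts (Inmt, Mfap4, Mgp) or platelets (Nrgn, Pf4, Ppbp) gave 61.8 CPM tumor-bearing against 19.2 CPM control, and 91.3 CPM tumor-bearing against 21.8 CPM control. Hspa1a log2 ratios thus ran between 0.76 and 2.22, and the tumor-bearing values of the 4 clusters without such markers lay close together, from 42.2 to 50.1 CPM. Except in the clusters led by Cxcl1 and by Nrgn, Hspa1a passed the 20 CPM minimum through the tumor-bearing library alone.

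The other members kept 1 direction across the clusters except Hsph1. Dnaja1 log2 ratios ran between 0.17 and 0.51 with 5 of 6 clusters higher, and Dnajb1 between 0.13 and 0.41 with 2 of 6 higher. The share of all genes past the size rule is not given within single clusters, so these calls and those of Hspa1a have no background beside them. Dnajb1 differed more between clusters than between libraries within them: it was at 134 CPM in tumor-bearing and 104 CPM in control cells of the Cxcl1-led cluster, against 49.9 CPM in tumor-bearing and 41.5 CPM in control cells of the Lrg1-led one. The Cxcl1-led cluster held 1615 of 6729 AT2 cells (tumor-bearing) and 1423 of 10008 AT2 cells (control); with the 6 clusters weighted equally the Dnajb1 log2 ratio was 0.27 in place of 0.54 and no longer past the size rule. Hspa8 lay between -0.45 and -0.13, Hspb1 between -0.53 and -0.02 and Cryab between -0.40 and -0.01, all below 0 in 6 of 6 clusters, while Hsp90aa1 lay above 0 in 6 of 6 (0.18 to 0.39).

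**Figure D2:**
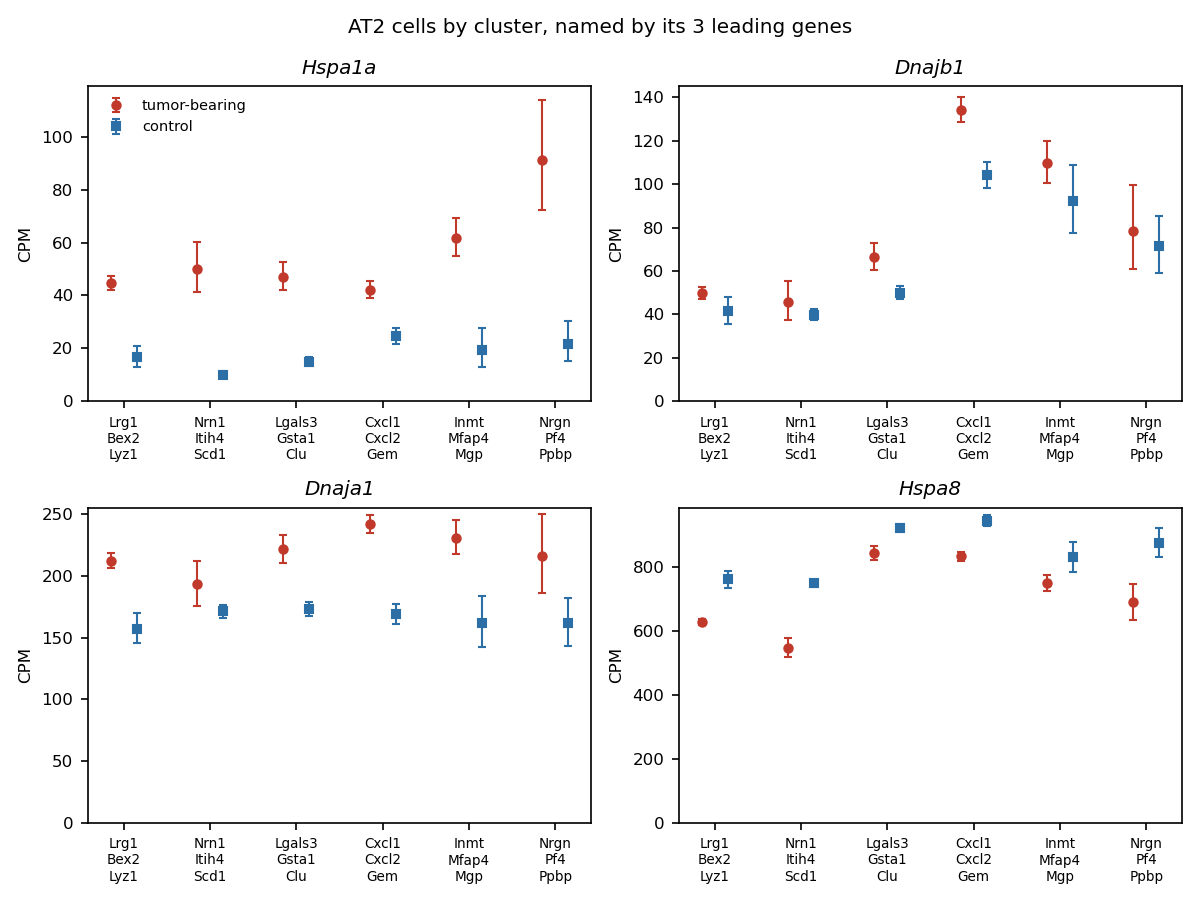
CPM on the y axis for Hspa1a, Dnajb1, Dnaja1 and Hspa8 in 6 clusters of AT2 cells, named on the x axis by their 3 leading genes; circles are the tumor-bearing and squares the control library, and bars are 95% exact Poisson intervals. Hspa1a is above control in 6 of 6 clusters and Hspa8 below it in 6 of 6, and Dnajb1 peaks at 134 CPM in the Cxcl1-led cluster.

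Hspa1a was also higher in the tumor-bearing library in each of the other cell classes and in empty droplets. In AT1-like cells the tumor-bearing cells had 50 UMIs or 37.0 CPM and the control cells 30 UMIs or 13.6 CPM, a fold of 2.72 (1.69 to 4.43). With free RNA subtracted the direction turned there, to a log2 ratio of -2.52. That subtraction took 80.1% of tumor-bearing and 33.8% of control UMIs. It drew on endothelial genes at 1.74 times (tumor-bearing) and 2.82 times (control) their empty-droplet level, so it does not measure free RNA alone. In ciliated-like cells the levels were 178 CPM (tumor-bearing) and 97.4 CPM (control), a fold of 1.82 (1.45 to 2.29). In club-like cells the levels were 165 CPM (tumor-bearing) and 35.1 CPM (control), a fold of 4.69 (3.42 to 6.62). In endothelial-like cells tumor-bearing cells were at 283 CPM and control cells at 42.1 CPM from 9 UMIs, a fold of 6.72 (3.51 to 14.8). Empty droplets were at 122 CPM (tumor-bearing) and 31.0 CPM (control), a fold of 3.93 (3.08 to 5.08). Hspa1b was higher in 4 of these, with folds of 1.84 (1.29 to 2.64) in ciliated-like cells, 4.52 (2.33 to 10.0) in club-like cells, 4.80 (1.29 to 40.3, 2 control UMIs) in endothelial-like cells and 2.39 (1.55 to 3.82) in empty droplets. In AT1-like cells it had 6 tumor-bearing and 7 control UMIs. Except in ciliated-like cells, these Hspa1b calls passed the 20 CPM minimum through the tumor-bearing library alone. The Hspa1a call in AT1-like cells did so too. A lower call was not possible in those cases.

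No other member was higher in a named class other than AT2, and several were lower. In AT1-like cells, where 6.74% of measured genes were higher and 3.95% lower, 1 of 7 measured members was higher and 2 lower, Hspa8 at 851 CPM in tumor-bearing and 1197 CPM in control cells and Hspb1 at 275 CPM in tumor-bearing and 415 CPM in control cells. With free RNA subtracted at 80.1% (tumor-bearing) and 33.8% (control), Hspb1 turned to a log2 ratio of 0.57 in AT1-like cells, in place of -0.59. Hspa8 moved to -0.25, within the size limits. These fractions do not measure free RNA alone. In ciliated-like cells, with 2.99% of genes higher and 2.56% lower, 2 of 9 were higher and 4 lower. These were Dnajb1 (203 CPM tumor-bearing, 292 CPM control), Hspa8 (816 CPM tumor-bearing, 1353 CPM control), Hsp90aa1 (2392 CPM tumor-bearing, 3181 CPM control) and Hspb1 (173 CPM tumor-bearing, 242 CPM control). The median log2 ratio of the 9 members there was -0.38, against 0.03 for all genes. Beside these values, the 19 listed immediate early and dissociation genes summed to 9072 CPM in tumor-bearing and 19005 CPM in control ciliated-like cells, with 18 of 18 measured members lower; their part in the chaperone values was not tested.

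In club-like cells the median of all 3131 measured genes was itself at a log2 ratio of -0.50, and 37.9% of them were lower and 1.15% higher. The secretoglobin-rich club markers took 621174 CPM in tumor-bearing cells and 466161 CPM in control cells, and basal cell markers were at 219 CPM in tumor-bearing and 1565 CPM in control cells; their part in the values was not tested. Against that background, Hspa8 (log2 ratio -0.74) and Hspb1 (-0.79) lay a little below the median gene, Cryab (-1.38) further below, and Dnajb1 (0.06), Dnaja1 (-0.07) and Hsp90aa1 (-0.04) above it. By the size rule 2 of 8 measured members were higher and 3 lower. With clusters at the finer Leiden resolution of 1.0 the Hspb1 log2 ratio turned to 0.39 in club-like cells, and Dnajb1 stood at 0.66. In endothelial-like cells, where 3.28% of genes were higher and 3.72% lower, 2 of 8 were higher and only Cryab was lower, at 266 CPM in tumor-bearing and 440 CPM in control cells. Hsph1 had 21 UMIs there in tumor-bearing cells and 0 UMIs in control cells, where the floor of 3 counts set for a count of 0 is 14.0 CPM, so no fold is given. In empty droplets, where 4.98% of genes were higher and 7.94% lower, Hspa1a, Hspa1b and Dnaja1 (252 CPM in tumor-bearing, 193 CPM in control droplets) were the 3 of 8 that were higher, and 0 were lower.

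**Figure D3:**
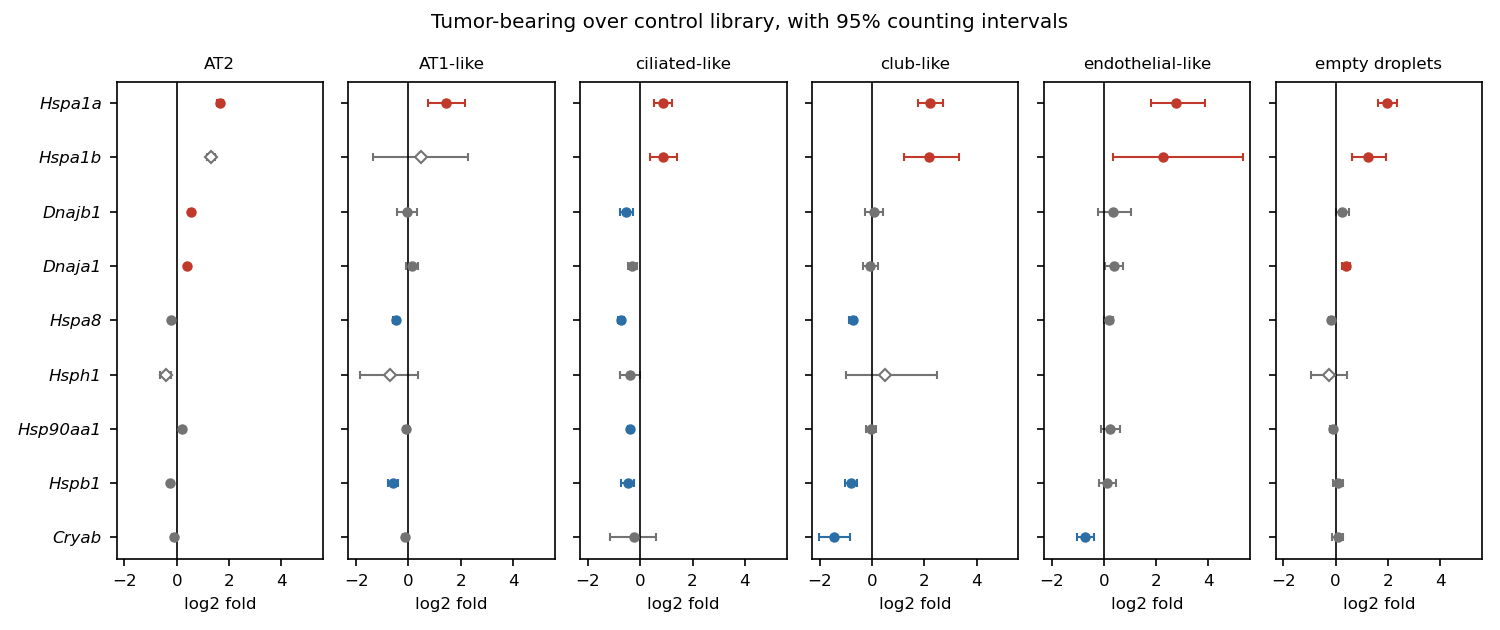
Log2 fold (tumor-bearing over control) on the x axis for each chaperone gene, 1 panel per cell class, with 95% counting intervals; red points are higher and blue points lower by the size rule, grey points have no call, and open diamonds are under 20 CPM in both libraries. Hspa1a is right of 0 in all 6 panels; Hspa8 and Hspb1 are left of 0 in AT2, AT1-like, ciliated-like and club-like cells.

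Several members had a level in 1 class well above that in the others, in both libraries. Cryab was the most restricted: 2160 CPM in tumor-bearing and 2388 CPM in control AT1-like cells, which is 45.2 times (43.0 to 47.6, tumor-bearing) and 46.2 times (44.3 to 48.2, control) its level in AT2 cells of the same library, with endothelial-like cells next and ciliated-like and club-like cells lowest. Hsp90aa1 had its highest level in ciliated-like cells, 6.22 times (tumor-bearing) and 9.62 times (control) the AT2 level, followed by AT1-like cells at 2.83 times (tumor-bearing) and 3.49 times (control). Hsph1 was 15.5 (12.4 to 19.3) times its AT2 level in tumor-bearing ciliated-like cells and 15.1 (12.6 to 18.1) times in control ones, at 91.0 CPM (tumor-bearing) and 119 CPM (control). Dnajb1 had its highest level in ciliated-like cells too, 2.43 times (tumor-bearing) and 5.10 times (control) the AT2 level.

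The order of classes changed between the libraries for Hspa1a. In the tumor-bearing library endothelial-like cells were highest, then ciliated-like and club-like cells, whose intervals overlapped, then AT2 and AT1-like cells, whose intervals overlapped. In the control library ciliated-like cells were highest, then endothelial-like and club-like cells with overlapping intervals, then AT2 and AT1-like cells again. Hspb1 was lowest in AT2 cells in both libraries and highest in endothelial-like cells (424 CPM tumor-bearing, 388 CPM control) and AT1-like cells. Dnaja1, Hspa8 and Hsp90aa1 were lowest in club-like cells in both libraries.

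**Figure D4:**
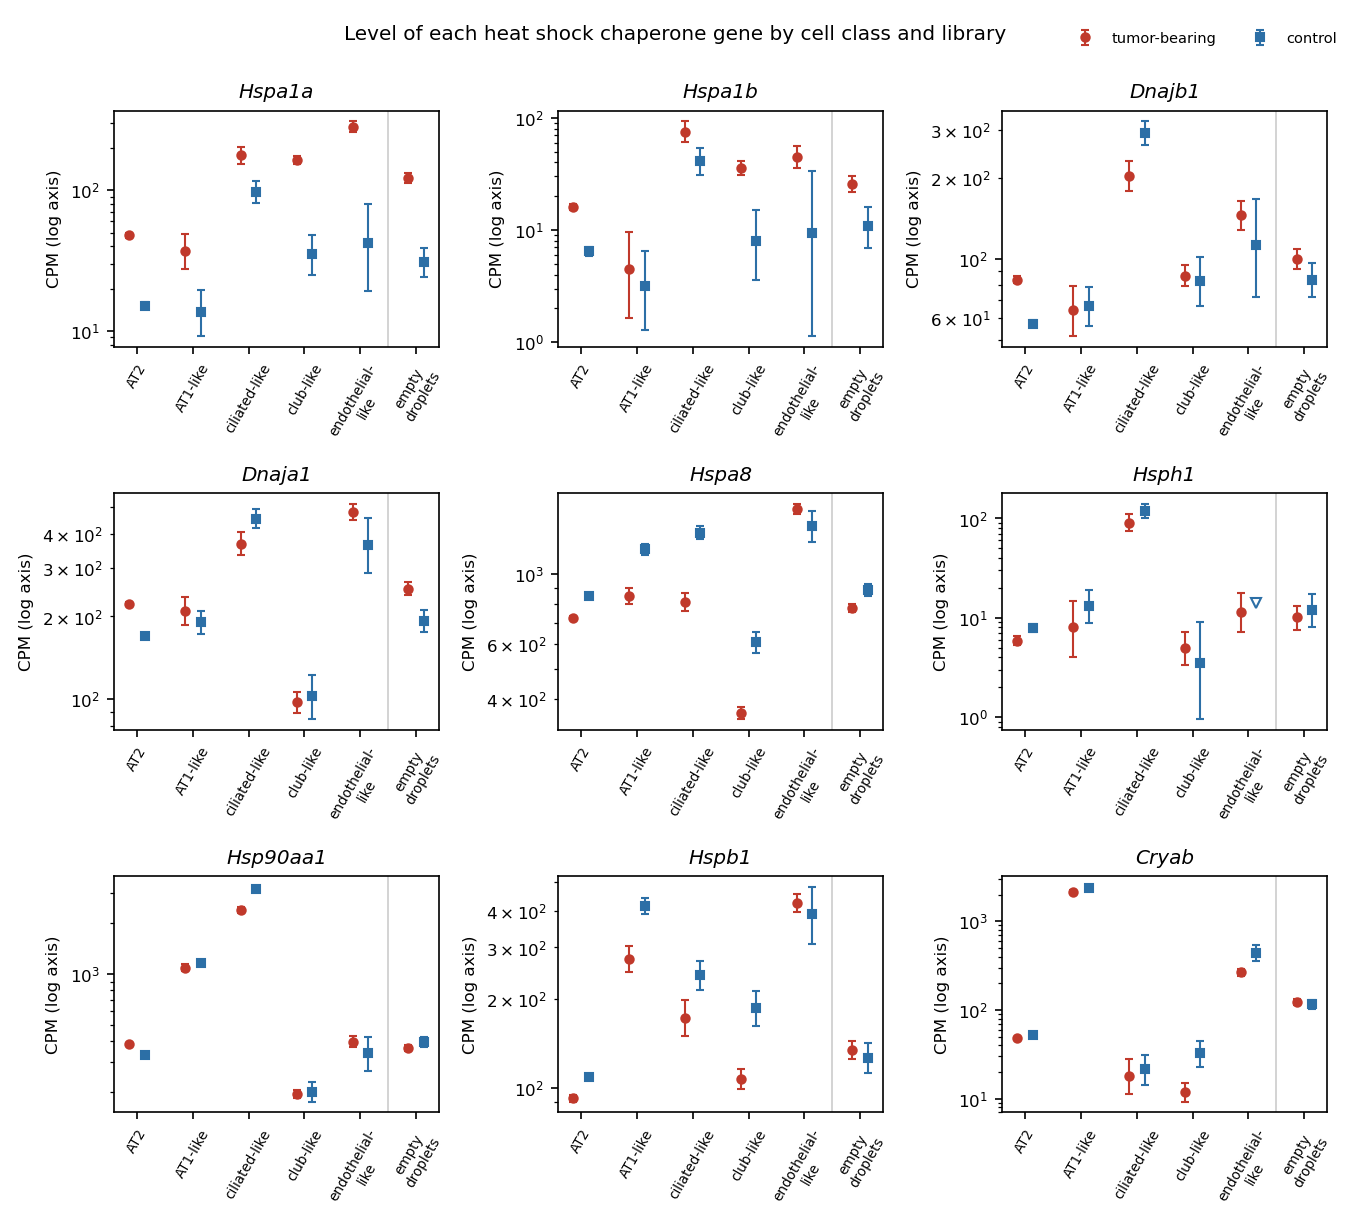
CPM (log axis) on the y axis of each chaperone gene in 5 cell classes and in empty droplets (right of the grey line); circles are the tumor-bearing and squares the control library, bars are 95% exact Poisson intervals, and the open triangle is the floor of 3 counts where Hsph1 had 0 UMIs. Cryab stands at 2160 CPM (tumor-bearing) and 2388 CPM (control) in AT1-like cells, and Hsp90aa1 and Hsph1 peak in ciliated-like cells.

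Free RNA was richer in Hspa1a than AT2 cells were. As multiples of the empty-droplet level, Hspa1a in AT2 cells was at 0.392 (tumor-bearing) and 0.487 (control); Cryab was at 0.391 (tumor-bearing) and 0.446 (control), Hspa1b at 0.622 (tumor-bearing) and 0.599 (control), and Dnaja1 at 0.883 in both. Genes that AT2 cells should lack were at lower multiples when summed. These were 0.0443 (tumor-bearing) and 0.213 (control) for 4 red cell genes, and 0.250 (tumor-bearing) and 0.404 (control) for 5 endothelial genes. Gene by gene this did not hold for the endothelial genes in control cells. Egfl7 was at 19.5 CPM in control AT2 cells and 32.7 CPM in control empty droplets, a larger multiple than that of Hspa1a. Cdh5 and Pecam1 were also at larger multiples there, and Cldn5 and Ramp2 at smaller ones. Red cell genes also led a cluster of 88 control and 19 tumor-bearing cells with a median Sftpc share of 25.6%. The part of such droplets in the subtracted fraction was not tested. When the empty-droplet profile was subtracted at the fraction given by those 9 red cell and endothelial genes together, 10.7% of tumor-bearing and 22.6% of control AT2 UMIs, the Hspa1a log2 ratio was 1.80 in place of 1.60. At the endothelial genes' own fraction, 25.0% (tumor-bearing) and 40.4% (control), it was 2.17, and the Cryab log2 ratio was 1.40 in place of -0.11. In the 1954 tumor-bearing and 4583 control AT2 cells with no UMI of any of 10 endothelial markers the Hspa1a log2 ratio was 1.49, with Dnajb1 at 0.40 and Dnaja1 at 0.37.

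Hspa1a UMIs were found in a minority of AT2 cells. Every cell was thinned to 2000 UMIs so that depth was equal, which leaves an average of under 1 UMI for each member but Hspa8. At that depth 6.55% of tumor-bearing cells (5.97 to 7.17, exact binomial interval) and 2.78% of control cells (2.46 to 3.12) held Hspa1a; before thinning the shares were 19.2% (tumor-bearing) and 8.71% (control). For the endothelial gene Cldn5, which AT2 cells should lack, the thinned shares were 4.61% in tumor-bearing and 0.789% in control AT2 cells, with 161 CPM (tumor-bearing) and 17.7 CPM (control) in empty droplets. Over 5 endothelial genes the thinned shares ran between 1.41% and 6.17% in tumor-bearing cells and between 0.390% and 3.83% in control cells, with Egfl7 highest in both. The Hspa1a share lay above that of Cldn5 in both libraries, but its tumor-bearing interval included the Egfl7 share and its control share lay below the Egfl7 share. Hspa1b was found in 2.70% of tumor-bearing and 1.249% of control cells, below Egfl7 in both libraries and below Cldn5 in tumor-bearing cells. The shares of cells with Hspa1a or Hspa1b are therefore not read as shares of AT2 cells that express them. Dnajb1 was in 12.6% of tumor-bearing and 9.92% of control cells, Dnaja1 in 34.4% of tumor-bearing and 28.2% of control cells, and Hsp90aa1 in 50.3% of tumor-bearing and 46.0% of control cells. Hspa8 was in 72.3% of tumor-bearing and 78.7% of control cells, and Hspb1 in 15.3% of tumor-bearing and 18.2% of control cells.

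Hspa1a had the highest ratio of variance to mean of the members in tumor-bearing AT2 cells. The ratio was 1.71 in tumor-bearing and 1.19 in control cells after thinning, where 1 is expected of random sampling, and the cell with most held 27 UMIs (tumor-bearing) and 14 UMIs (control) before thinning. Dnajb1 had 1.42 in tumor-bearing and 1.16 in control cells, and Dnaja1 1.08 in tumor-bearing and 1.04 in control cells. The endothelial-like cells of the tumor-bearing library had the highest ratio of the 5 cell classes for Hspa1a, 4.58, with 23.2% of cells holding the gene, against 1.49 and 7.81% in the 64 control cells.

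In the tumor-bearing library, AT2 cells with several Hspa1a or Hspa1b UMIs also held more of the HSP90 and HSC70 transcripts. After thinning, 2 or more UMIs of the pair were found in 121 of 6729 tumor-bearing AT2 cells (1.80%) and in 17 of 10008 control AT2 cells (0.170%). In the tumor-bearing library Hsp90aa1 was at 375 CPM (364 to 386) in cells with none, 448 CPM (406 to 493) in the 467 cells with 1, and 657 CPM (559 to 767) in the 121 cells with 2 or more. Over the same 3 groups of tumor-bearing cells, in that order, Hspa8 was at 711 CPM (696 to 726), 768 CPM (712 to 826) and 996 CPM (874 to 1130). Dnaja1 was at 217, 224 and 289 CPM (225 to 365 in the last), and Hspb1 at 89.5, 112 and 145 CPM (101 to 201 in the last). Cryab was at 42.9, 41.8 and 37.2 CPM, with overlapping intervals. Dnajb1 was at 77.8, 88.9 and 120 CPM (80.3 to 172 in the last), and Hsph1 at 5.70, 5.35 and 4.13 CPM. Immediate early and dissociation genes summed to 6304, 7310 and 6888 CPM (6562 to 7227 in the last) over these tumor-bearing groups. That sum was above the level of cells with none, but was not highest in cells with 2 or more. Single genes of that list differed, with Jun at 870, 1001 and 1161 CPM and Egr1 at 506, 565 and 434 CPM. The 17 control cells were too few to compare, with Hsp90aa1 at 235 CPM (102 to 464).

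**Figure D5:**
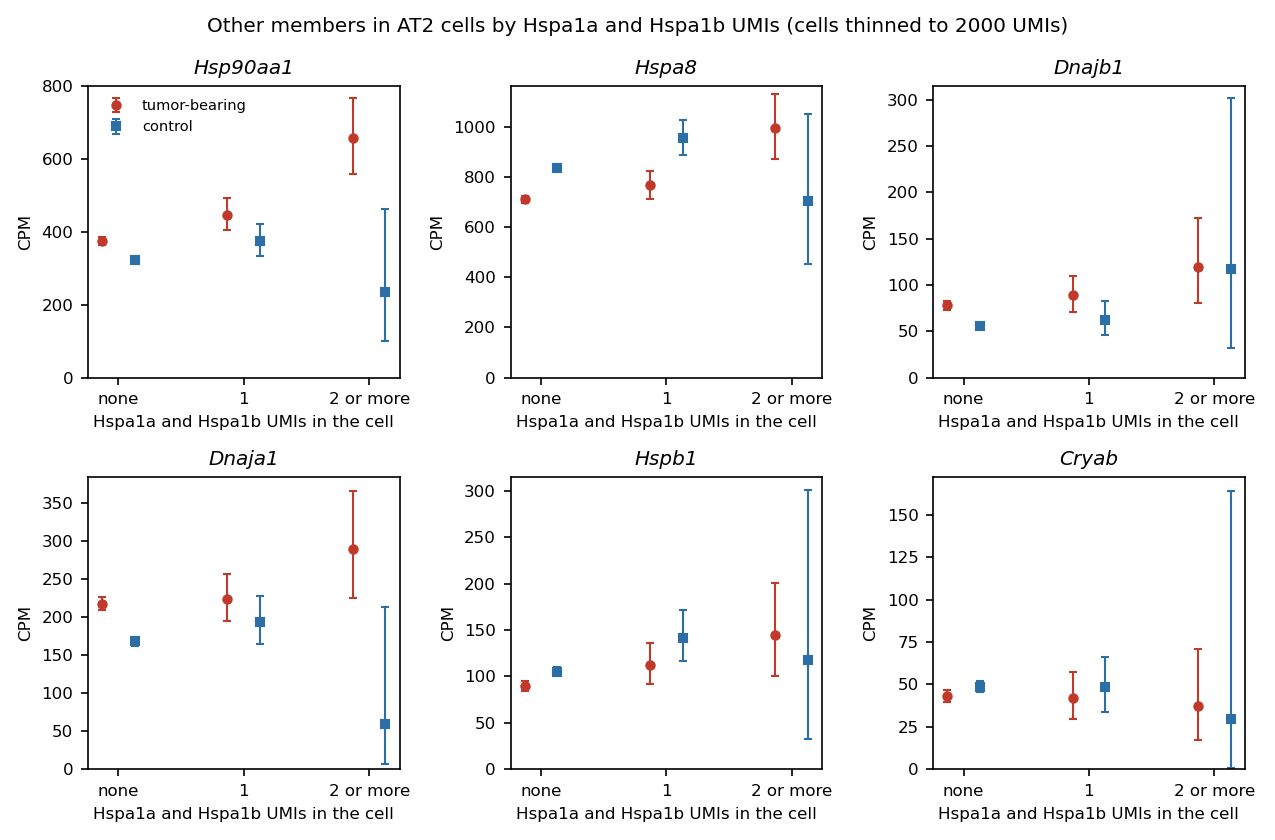
CPM on the y axis of 6 other chaperone genes in AT2 cells thinned to 2000 UMIs, by the number of Hspa1a and Hspa1b UMIs in the cell on the x axis; circles are the tumor-bearing and squares the control library, and bars are 95% exact Poisson intervals. Hsp90aa1 and Hspa8 are highest in the 121 tumor-bearing cells with 2 or more UMIs, at 657 and 996 CPM, and the bars of the 17 control cells are wide.

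Co-expression of the members from cell to cell was weak in AT2 cells. Over the 36 pairs, Pearson's r of thinned UMIs had a median of 0.022 over 6729 tumor-bearing cells and 0.014 over 10008 control cells, and all cells of a library share its free RNA. The highest r was 0.1002, for Hspa1a with Hspa1b in tumor-bearing cells, where 35 cells held both against 11.9 if the genes were independent; in control cells 2 held both, against 3.47. Next in tumor-bearing cells came Hspa1a with Hsp90aa1 at 0.079, against 0.019 in control cells. At least 5 of the 9 members were found in 1.90% of tumor-bearing cells, against 1.07% if independent, and in 1.03% of control cells, against 0.721%. Sparse counts lower such values, and none of them counts as a finding by itself.

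In the other classes the median r over the 36 pairs was also near 0 in most libraries. It was 0.018 in tumor-bearing and 0.023 in control AT1-like cells, and 0.044 in tumor-bearing and 0.041 in control ciliated-like cells. Club-like cells had 0.092 (tumor-bearing) and 0.020 (control), and endothelial-like cells -0.0014 (tumor-bearing) and -0.0051 (control), where for the control 28 pairs had a value. The Hspa1a and Hspa1b pair varied between classes and libraries. Its r was 0.421 in 525 tumor-bearing and -0.034 in 64 control endothelial-like cells, 0.290 in 269 tumor-bearing and -0.041 in 108 control club-like cells, 0.188 in 215 tumor-bearing and 0.328 in 283 control ciliated-like cells, and -0.022 in 177 tumor-bearing and 0.111 in 322 control AT1-like cells. Few cells held both genes, at most 22, in tumor-bearing endothelial-like cells, against 8.37 if independent.

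Over 3705 genes and leaving out the 9 members, those most like Hspa1a across AT2 cells, by the mean r of the 2 libraries, were the immediate early genes Fos (0.057), Jun (0.050) and Fosb (0.044), all weak; among the members Hsp90aa1 had a mean r of 0.049 with it. Dnajb1 was most like Egr1 (0.174), Junb (0.156) and Ier2 (0.153), immediate early genes too. Cryab was most like the AT1 genes Hopx (0.339) and Ager (0.233) and like S100a6 (0.229). For Hspa8 these were Actg1, Fos and Ubb (0.097 to 0.101), and for Hsp90aa1 the ciliated marker Tppp3 (0.078), Hsp90ab1 (0.065) and Lgals3 (0.062). For Hsph1 they were Babam1 (0.035) and the ciliated markers Tppp3 (0.034) and Dynlrb2 (0.033). Dnaja1 was most like Actg1 (0.042), Cr1l (0.038) and Jun (0.034), and Hspa1b most like Grhpr (0.034), Lrg1 (0.032) and Unc50 (0.032). For Hspb1 they were Sftpa1, Areg and Anxa3, all at 0.060 to 0.061.

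Other chaperone lists lay close to the median gene in AT2 cells, where 4.31% of all measured genes were higher and 3.99% lower. Of 8 measured genes of a list of other cytosolic HSP70, HSP110, HSP90 and J proteins, 1 was higher, the J protein gene Dnajb4 (35.98 CPM in tumor-bearing and 27.6 CPM in control cells), and 1 was lower, Dnajb2 (29.8 CPM in tumor-bearing and 38.1 CPM in control cells); the constitutive HSP90 gene Hsp90ab1 was at 457 CPM (tumor-bearing) and 413 CPM (control). Of 13 measured cofactors, 0 were higher and 1 was lower, Stip1, which links HSP70 to HSP90 (21.9 CPM in tumor-bearing and 28.5 CPM in control cells); Chordc1, an HSP90 cofactor, was at 23.1 CPM (tumor-bearing) and 18.7 CPM (control). None of 7 subunits of the TRiC chaperonin, which folds actin and tubulin, had a call (higher 0, lower 0), and none of 5 measured mitochondrial chaperones did. List medians of the log2 ratio were -0.07 for the cytosolic proteins, -0.08 for cofactors, 0.02 for TRiC and -0.09 for mitochondrial chaperones, against -0.04 for all genes.

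Of 10 endoplasmic reticulum chaperones, 0 were higher and 2 lower in tumor-bearing AT2 cells, beside 4.31% higher and 3.99% lower of all measured genes. The 2 were Sdf2l1 (15.3 CPM in tumor-bearing, 25.4 CPM in control cells) and Hyou1 (16.5 CPM in tumor-bearing, 21.0 CPM in control cells). Of a list of other genes named as small heat shock proteins, Hspb8 and Hspb11 were measured and had no call. Hspb8 was at 24.3 CPM (tumor-bearing) and 23.8 CPM (control), and Hspb11 at 37.6 CPM (tumor-bearing) and 35.998 CPM (control). The listing went by gene name and does not establish that Hspb11 encodes a protein of this family. Hsf1, which encodes heat shock factor 1, was at 7.33 CPM in tumor-bearing and 10.6 CPM in control cells. Its fold was 0.688 (0.612 to 0.773), and it has no call because both levels were under the 20 CPM minimum. Of the 19 immediate early and dissociation genes, 5 were higher in AT2 cells, led by Klf2 (48.4 CPM in tumor-bearing, 24.2 CPM in control cells) and Jun (897 CPM in tumor-bearing, 615 CPM in control cells), and 0 were lower, with a median log2 ratio of 0.23. In AT1-like cells 12 of 19 were higher, where 6.74% of all genes were, and in endothelial-like cells 11 of 19 were higher and 1 lower, where 3.28% and 3.72% of all genes were. In empty droplets 3 of 19 were higher, beside 4.98% of all genes. In club-like cells 11 of 19 were lower and 0 higher, but 37.9% of all genes were lower there, and the list's median log2 ratio of -0.44 was close to the -0.50 of all genes. The part of these genes in the Hspa1a values was not tested.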

How the data were processed

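Cells were sorted as CD45- SftpC+ and sequenced as 10x libraries on a NovaSeq instrument, per the labels' protocols. The deposited matrices hold unnormalized UMI counts, 28692 genes by 737280 barcodes per library. Per the series' design text, Cell Ranger 2.1.0 was used with default settings; per the submitters' processing notes, mm10 was the genome, and Seurat and R 3.5.3 have no stated role.

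From the deposited counts, CPM were computed from summed UMIs of each class. Other classes came from joint clustering (scanpy 1.11.5; 2000 variable genes without the chaperone and immediate early genes, 30 components, 15 neighbours, Leiden resolution 0.5) of 7632 tumor-bearing and 10021 control cells with at least 2000 UMIs, 500 genes and at most 20% mitochondrial UMIs. Scrublet's own threshold marked 0 doublets in both, so the 533 (tumor-bearing) and 966 (control) highest scores were removed; the AT2 cells were not filtered for doublets. A cluster was named when at least 3 of its type's markers were detected, raised over all other cells and not outnumbered by another type's among its 10 leading genes, by a rule set after the data were seen. A difference from the study may come from these rebuilt names. Intervals are exact Poisson, binomial or conditional binomial, at 95%; a count of 0 was given a floor of 3 counts. The size rule was checked on simulated counts. These were drawn from the control AT2 profile with counting error only, so the check cannot speak to variation between libraries.

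The 9 members and the gene lists were chosen with earlier results of these data known. All 9 members are named; of other lists up to 4 measured genes with the largest ratios, 3 most alike genes for each member, and 3 leading genes of each cluster. Hsf1, Cldn5, Egfl7, Ptprc and the partners overlapping a member were named outside this rule, after their values were seen. Gene positions are from GENCODE vM21, which held 28416 of the 28692 identifiers (99.0%). Alternatives to gates, scaling, filters, free RNA and clustering are in the closing section.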

Additional observations from a re-analysis of the deposited data

Results flagged for a closer look

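The Dnajb1 log2 ratio of tumor-bearing over control was 0.54 in AT2 cells and -0.53 in ciliated-like cells, and both values passed the size rule, in opposite directions; with the 6 AT2 clusters weighted equally the AT2 value was 0.27 and no longer passed it. The levels were 83.6 CPM in tumor-bearing and 57.4 CPM in control AT2 cells, and 203 CPM in tumor-bearing and 292 CPM in control ciliated-like cells. With 1 library per group the difference between the classes was not tested. The median log2 ratio of the immediate early list was 0.23 in AT2 and -1.05 in ciliated-like cells, with the sign of Dnajb1, but 0.50 in AT1-like and -0.44 in club-like cells, where Dnajb1 was at -0.05 and 0.06; its part in the result was not tested.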

How the results depend on the processing

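No paired analysis was possible because each group has 1 library. In AT2 cells Hspa1a kept its direction under all alternatives run (log2 ratio 1.20 to 2.17), as did Dnajb1 (0.27 to 0.97), Dnaja1 (0.34 to 0.46) and Hspa8 (-0.27 to -0.18); Cryab ran from -0.61 to 1.40. The measured members had a median of 0.249 on the log2 scale with scaling without the 10 most abundant genes, 0.259 with median ratio scaling, 0.249 with cells thinned to 2000 UMIs, 0.309 with free RNA subtracted and 0.268 with clusters weighted equally, against 0.22. Free RNA subtraction at the endothelial fraction, chosen after seeing the data, gave a median of 0.457 and 5 members higher (adding Hsp90aa1 and Cryab, with 9.69% of genes higher). The members higher were 1, Hspa1a, at a fold of 1.5 (1.36% of genes) and at 2 (0.694%), 4 with no CPM minimum (3.91%) or scaling without the 10 genes (5.31%), both adding Hspa1b, and 2 at 50 CPM (3.92%, losing Hspa1a) or with clusters weighted equally (3.95%, losing Dnajb1). The members lower were 1 with no CPM minimum (Hsph1, 2.82% of genes) and, in alternatives chosen after seeing the data, without the Cxcl1-led cluster (Hspb1, 4.21%), in cells with no endothelial-marker UMI (Cryab, 7.09%) and without cells of the other named clusters (Cryab, 4.46%). Without the fibroblast, platelet and red cell clusters the same 3 members were higher (3.92%) and 0 lower. In AT1-like cells free RNA subtraction reversed Hspa1a to -2.52 and Hspb1 to 0.574, and moved Dnajb1 to -5.89, Hsph1 to -3.42, Dnaja1 to -2.303, Hsp90aa1 to 1.38 and Cryab to 1.55; the estimated fraction there was 80.1% in tumor-bearing and 33.8% in control cells, since endothelial genes were at 1.74 times (tumor-bearing) and 2.82 times (control) their empty-droplet level. In ciliated-like cells it moved Cryab to 3.84. Hspb1 reversed to 0.388 in club-like cells at Leiden resolution 1.0; the cause was not tested. The stricter UMI minimum was not run for endothelial-like cells, since 11 cells of the smaller library were left. Depth limits endothelial-like control values most, with 64 cells.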
